A study of Mus musculus with 2 samples.

Results

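Amino acid transporters of the plasma membrane supply a T cell with the building blocks and the nitrogen it needs to grow and divide. The chromatin around 6 of their genes, Slc7a5, Slc3a2, Slc1a5, Slc7a1, Slc38a1 and Slc38a2, was described here in mouse T cells. All peaks of 2 ATAC-seq peak lists that lay in the 6 gene bodies or within 20 kb on either side were taken, which gave 61 peaks in replicate 1 and 49 peaks in replicate 2. Merged over both libraries, they formed 60 regions of the 84666 in the whole genome. The genes were 6 of 21853 protein-coding genes and were chosen by name, though with earlier results of these data known.

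ATAC-seq marks open chromatin, because the transposase cuts DNA that is not wrapped in nucleosomes and leaves sequencing adapters there. The libraries came from primary T cells of strain C57BL/6NJ mice and formed 1 group, with no second condition. They are biological replicates 1 and 2 of the labels and have separate sample records under 1 donor record, so the spread between them may be technical. Sex was not collected and age is unknown. No label gives a subset or states activation, although a linked protocol is titled as one for CD4+ T cell differentiation and the peak names carry Th0 and a time in hours. Promoters of all 11 T cell markers examined were open in both libraries, among them Cd3e, Lck, Zap70 and Cd4. Of the markers of other cells, 1 of 4 B cell genes (Pax5), 1 of 2 epithelial genes (Epcam), 0 of 4 myeloid genes and 0 of 2 hepatocyte genes had an open promoter. In such bulk material, weaker opening in all cells and opening in fewer of the cells cannot be told apart.

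As background, Slc7a5 encodes LAT1, the transporter of large neutral amino acids such as leucine, and Slc3a2 encodes CD98 heavy chain, the partner that brings LAT1 to the cell surface. Slc1a5 encodes ASCT2, an exchanger of neutral amino acids including glutamine. Slc7a1 encodes CAT1, a carrier of arginine and other cationic amino acids. Slc38a1 and Slc38a2 encode sodium-coupled carriers of small neutral amino acids and glutamine. Activated T cells are known to raise uptake through several of these carriers. When amino acids run short, the kinase encoded by Eif2ak4 raises translation of the transcription factor ATF4, which binds a composite element in many transporter genes.

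All 6 promoters were open in both libraries, as were those of 62.9% of all protein-coding genes. Each of the 6 genes had at least 1 distal region with a higher signal than its own promoter. So did 44.7% of all genes with both kinds of region, and 54.2% of those with 3 to 11 distal regions. A promoter region is one whose summit lies within 1000 bp of the start of a protein-coding transcript, and a distal region is any other. Signal is the authors' value in the seventh column of the peak file, read as fold over local background, and the authors' −log10 q stands in the ninth column. Both are the peak caller's own values within each library. The order of distal and promoter regions given above is one of signal. By −log10 q, a distal region exceeded the own promoter in both libraries at Slc7a5 and Slc38a2 alone. Read depth of the libraries is unknown.

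A stretch of sequence from the strongest promoter region of each gene is shown first. Sequences are from the mm10 reference genome and not from the cells, and run 5′ to 3′ on the strand of the gene (minus for all but Slc1a5). They are up to 200 bp around the summit, shortened to leave out untranslated exons. The summits of Slc3a2, Slc38a1 and Slc38a2 lie in an exon and are not in the printed stretch, which is the 200 bp before the annotated 5′ end for Slc3a2 and Slc38a1 and the 78 bp of the window before it for Slc38a2. Capitals mark matches to the searched letters, namely the E-box CACGTG and the GATA letters AGATAA in Slc7a5, the CCAAT box in Slc1a5, the AP-1 letters TGANTCA in Slc7a1, the NFAT letters TTTCCA in Slc38a1, and a core of the CTCF motif in Slc7a1 and Slc38a1. That core is CA, AG and GGC, each separated by 2 bases, on either strand.
Slc7a5 promoter (chr8:121907695-121907864): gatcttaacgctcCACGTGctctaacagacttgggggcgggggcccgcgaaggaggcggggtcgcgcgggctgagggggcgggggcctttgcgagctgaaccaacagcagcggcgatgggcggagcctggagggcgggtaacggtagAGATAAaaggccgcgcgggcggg
Slc3a2 promoter (chr19:8723370-8723569): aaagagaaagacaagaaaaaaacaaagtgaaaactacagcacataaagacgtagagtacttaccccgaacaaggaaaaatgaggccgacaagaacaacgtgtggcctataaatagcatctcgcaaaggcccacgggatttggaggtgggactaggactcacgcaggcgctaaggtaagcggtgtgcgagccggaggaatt
Slc1a5 promoter (chr7:16781162-16781339): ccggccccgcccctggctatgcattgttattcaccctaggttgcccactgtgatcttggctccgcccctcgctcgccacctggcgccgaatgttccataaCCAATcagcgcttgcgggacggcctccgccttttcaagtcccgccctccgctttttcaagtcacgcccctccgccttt
Slc7a1 promoter (chr5:148399924-148400123): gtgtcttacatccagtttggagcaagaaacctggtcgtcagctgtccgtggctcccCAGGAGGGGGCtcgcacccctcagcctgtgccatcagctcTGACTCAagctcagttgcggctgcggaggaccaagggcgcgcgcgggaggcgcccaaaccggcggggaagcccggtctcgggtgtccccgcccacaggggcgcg
Slc38a1 promoter (chr15:96642914-96643113): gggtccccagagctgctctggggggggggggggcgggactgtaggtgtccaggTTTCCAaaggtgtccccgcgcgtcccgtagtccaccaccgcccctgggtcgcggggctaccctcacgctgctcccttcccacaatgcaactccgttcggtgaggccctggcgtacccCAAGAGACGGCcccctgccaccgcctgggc
Slc38a2 promoter (chr15:96699731-96699808): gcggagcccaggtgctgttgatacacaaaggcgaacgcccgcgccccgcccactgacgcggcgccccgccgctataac

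No match to the searched letters was found in the printed promoter stretches of Slc3a2 and Slc38a2. The counts of letters given further on are over the full 200 bp around each summit, exons included, and can differ from the marks. That window held a CCAAT box at Slc3a2. At Slc38a1 it held AP-1 letters and the ETS letters AGGAAGT, and neither the NFAT letters nor the CTCF core marked above. The strongest distal region of each gene follows, together with the intron region of Slc7a5, which was added after its values were seen because it had the largest −log10 q of all distal regions at the 6 genes. Capitals mark the CTCF core in the regions of Slc7a5, Slc3a2, Slc1a5 and Slc38a2. They also mark the STAT letters TTCNNNGAA and a CCAAT box in Slc3a2, the ETS letters AGGAAGT in Slc7a1 and Slc38a1, an E-box and NFAT letters in Slc38a2, and the ATF4 composite TGATGNAA in Slc7a1 and in the Slc7a5 intron. Each is marked on whichever strand it was found.
Slc7a5 distal region (chr8:121927399-121927598): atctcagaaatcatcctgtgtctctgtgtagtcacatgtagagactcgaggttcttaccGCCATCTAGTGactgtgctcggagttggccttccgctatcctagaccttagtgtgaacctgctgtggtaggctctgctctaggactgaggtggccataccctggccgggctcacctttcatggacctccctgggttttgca
Slc3a2 distal region (chr19:8695500-8695699): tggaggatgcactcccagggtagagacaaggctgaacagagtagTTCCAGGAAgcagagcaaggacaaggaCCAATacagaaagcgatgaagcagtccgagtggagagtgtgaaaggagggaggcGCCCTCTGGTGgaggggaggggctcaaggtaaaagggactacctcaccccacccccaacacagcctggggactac
Slc1a5 distal region (chr7:16804735-16804934): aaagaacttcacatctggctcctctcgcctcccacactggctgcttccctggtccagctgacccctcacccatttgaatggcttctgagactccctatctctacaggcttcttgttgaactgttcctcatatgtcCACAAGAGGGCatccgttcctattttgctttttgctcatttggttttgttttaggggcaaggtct
Slc7a1 distal region (chr5:148342475-148342674): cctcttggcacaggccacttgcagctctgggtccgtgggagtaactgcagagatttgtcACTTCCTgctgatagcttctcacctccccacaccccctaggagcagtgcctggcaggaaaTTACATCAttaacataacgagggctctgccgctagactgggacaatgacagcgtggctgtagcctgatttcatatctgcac
Slc38a1 distal region (chr15:96654837-96655036): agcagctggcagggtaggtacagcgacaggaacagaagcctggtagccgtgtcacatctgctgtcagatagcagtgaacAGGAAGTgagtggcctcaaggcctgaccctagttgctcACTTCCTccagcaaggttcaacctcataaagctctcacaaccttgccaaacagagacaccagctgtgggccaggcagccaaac
Slc38a2 distal region (chr15:96709831-96710030): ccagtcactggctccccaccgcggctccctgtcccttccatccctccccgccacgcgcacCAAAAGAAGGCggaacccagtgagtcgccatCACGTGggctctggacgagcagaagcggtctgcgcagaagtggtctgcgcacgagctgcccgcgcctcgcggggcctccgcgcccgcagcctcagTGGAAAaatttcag
Slc7a5 intron region (chr8:121898568-121898767): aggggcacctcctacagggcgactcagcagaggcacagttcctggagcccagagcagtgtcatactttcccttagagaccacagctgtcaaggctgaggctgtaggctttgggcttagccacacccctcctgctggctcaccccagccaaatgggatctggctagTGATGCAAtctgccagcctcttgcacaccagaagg

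**Figure D1:**
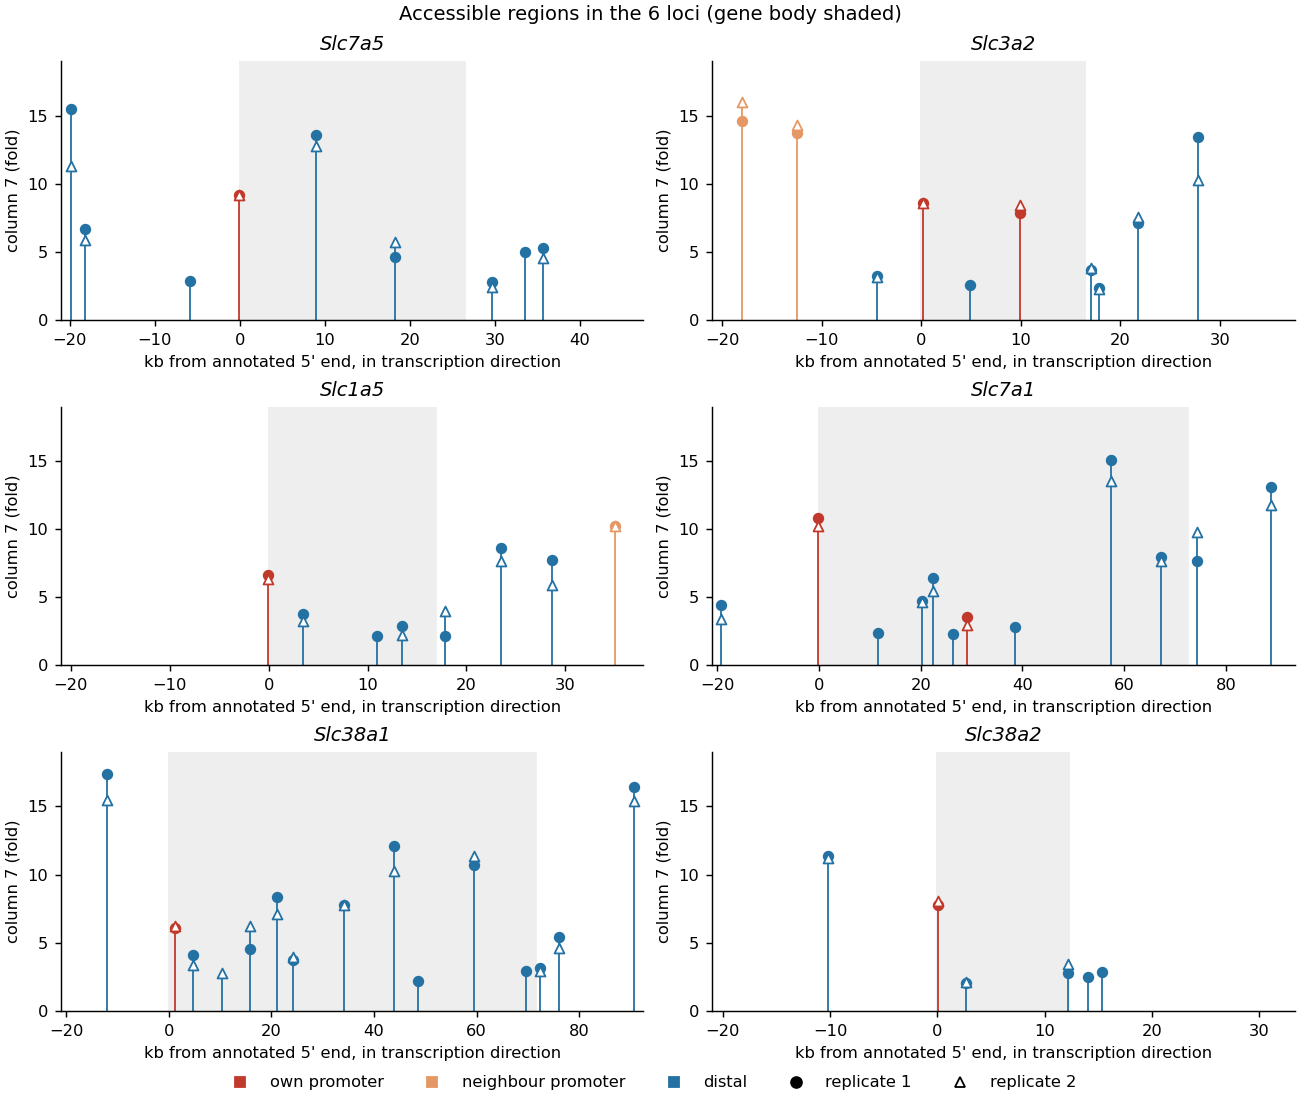
Accessible regions of the 6 loci, with kb from the annotated 5′ end in the direction of transcription on the x axis, signal (fold) on the y axis, the gene body shaded, replicate 1 as filled circles and replicate 2 as open triangles. In every locus at least 1 distal region (blue) stands above the gene's own promoter region (red).

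Of the 60 regions, 48 were found in both libraries, which is 80% against 79.0% of all merged regions. The 48 shared regions were 8 promoter regions of the 6 genes themselves, 3 promoter regions of neighbouring genes and 37 distal regions. Among the shared regions, the promoter summit farthest from its start lay 686 bp away, in Slc7a1, and the nearest distal summit 2629 bp away, in Slc38a2. The 12 regions of a single library were all distal and weak. Their −log10 q was between 2.1 and 18.6 with a median of 3.58, and 11 of them were in replicate 1.

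The 6 promoters were open, as were those of 62.9% of all protein-coding genes in both libraries, and all 6 had a signal below the median of open promoters. The 6 genes had a median signal of 8.25, against 11.2 for all genes with an open promoter, whose quartiles were 8.13 and 13.8. Slc38a2, Slc1a5 and Slc38a1, 3 of the 6, also lay below the lower quartile. The order from high to low was Slc7a1, Slc7a5, Slc3a2, Slc38a2, Slc1a5 and Slc38a1. The values of the 2 libraries did not overlap between neighbours in this order, but Slc1a5 at 6.65 and 6.32 and Slc38a1 at 6.08 and 6.26 were separated by less than their own spread.

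**Figure D2:**
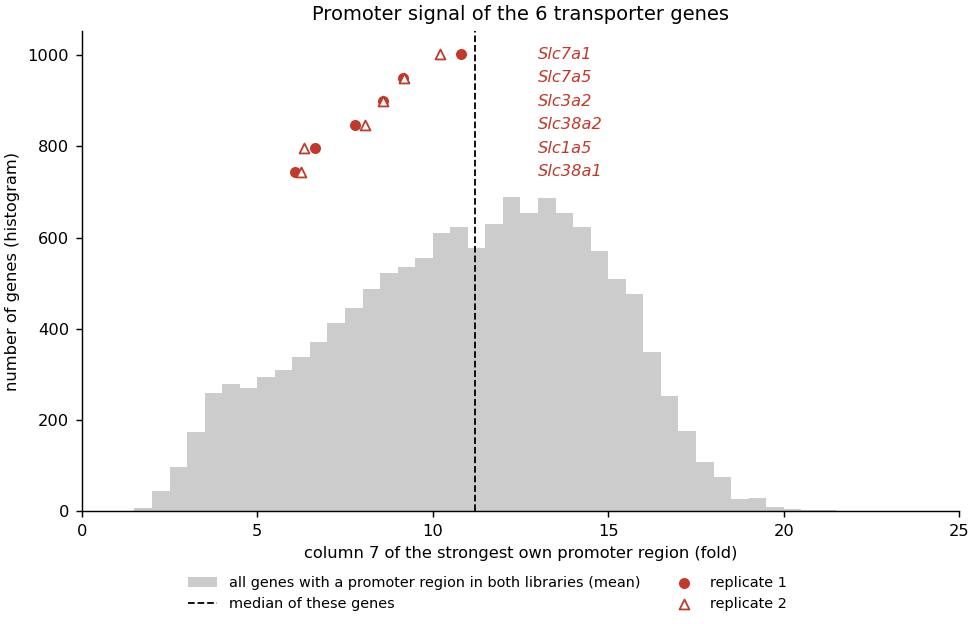
Signal of the strongest promoter region of the 6 genes, with replicate 1 as filled circles and replicate 2 as open triangles, over a histogram of the mean signal of all genes with a promoter region in both libraries. The histogram alone uses the y axis (number of genes), the dashed line is the median of 11.2, and all 12 points lie to its left.

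The promoter regions of 5 of the 6 genes were wider than the median, and that of Slc3a2 was equal to it. The strongest one of each gene spanned between 1274 bp in Slc3a2 and 2974 bp in Slc1a5, against a median of 1274 bp for all shared promoter regions. The merged Slc1a5 region was wider than 99.3% of shared promoter regions, but it joins peaks of 1914 and 720 bp in replicate 1 with 1 peak of 2879 bp in replicate 2. Both libraries had a single wide peak at Slc38a1, and the Slc38a1 region of 2738 bp was wider than 98.6%. Signal and width are tied in these lists, though not in 1 direction. With shared promoter regions split into quartiles by width, the median signal from narrowest to widest was 6.9, 12.9, 12.0 and 9.56. Against the 6918 promoter regions of 1274 to 2974 bp, whose median signal was 10.7 and lower quartile 8.33, all 6 genes lay below the median and 3 of them below the lower quartile.

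**Figure D3:**
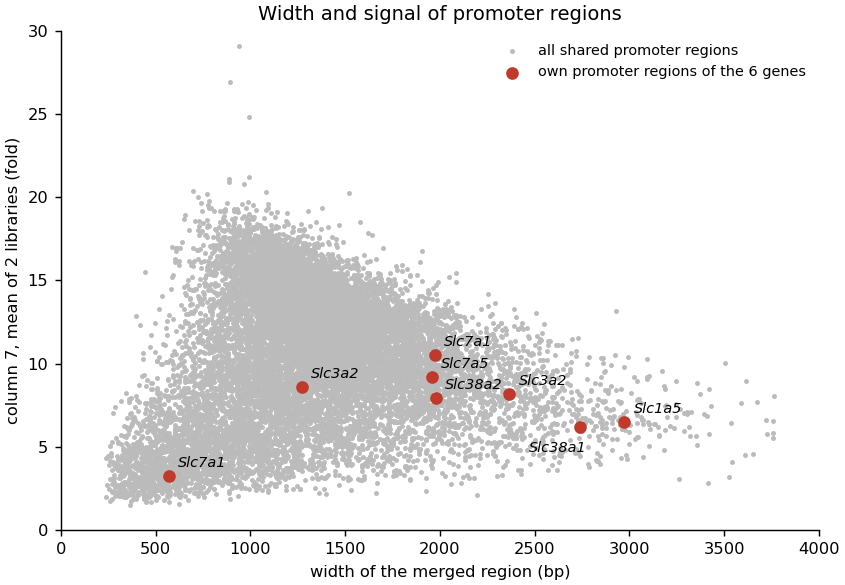
Width of merged promoter regions (bp) against mean signal (fold), with all shared promoter regions in grey and the 8 promoter regions of the 6 genes in red, and a few wider or stronger regions lie outside the axes. The strongest regions of Slc38a1 and Slc1a5 lie at the wide and low end, and the second region of Slc7a1 is narrow.

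Slc7a5, the light chain of the leucine transporter, lies on chr8:121881150-121907694 on the minus strand, inside the annotated read-through gene Gm20388. Its promoter region had a signal of 9.16 in replicate 1 and 9.19 in replicate 2 (mean 9.17 ± 0.0171, SD, n = 2), with a −log10 q of 208.5 and 158.0. It was higher than 32.7% of open promoters, and its summit lay 71 bp before the annotated start. The region also covers the start of the divergent noncoding RNA BC048644.

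Slc7a5 had 6 shared distal regions, against a median of 2 in genes of like length with the flanks counted in. Its intron held the most significant distal region of all 6 loci, at chr8:121898076-121899061, 9.03 kb into the gene. Its signal was 13.6 in replicate 1 and 12.8 in replicate 2, and its −log10 q was 397.1 and 251.9. Both signals exceeded those of the promoter, and the region was stronger than 92.1% of shared distal regions. No annotated transcript of any type starts within 1000 bp of it. The region of the highest mean signal, 13.4 ± 2.97, lay 19.8 kb before the gene at a start of a noncoding Car5a transcript, and it differed more between libraries, with 15.5 in replicate 1 and 11.3 in replicate 2. Both distal windows of the 6 genes that held AP-1 letters were at Slc7a5. They were in a second intron region with a signal of 4.60 and 5.73 and in a region 35.6 kb downstream of the start with 5.31 and 4.54.

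Slc3a2, the heavy chain that pairs with LAT1, lies on chr19:8706882-8723369 on the minus strand and had a pair of open promoters of nearly equal signal. The one at the annotated 5′ end had 8.57 in replicate 1 and 8.58 in replicate 2 (mean 8.57 ± 0.00574, SD, n = 2), with a −log10 q of 289.8 and 211.3. The one at internal coding starts, 9.94 kb downstream, had 7.88 and 8.42 (mean 8.15 ± 0.383). The internal region was wider, at 2367 bp against 1274 bp, and richer in G and C, at 67.0% against 54.5% in the 200 bp around the summit. The region at the 5′ end is shared with the start of the noncoding RNA Snhg1, so signal there cannot be assigned to Slc3a2 alone. The nearest start of Slc3a2 in the RefSeq promoter table lies 472 bp from the internal summit and 9291 bp from the summit at the 5′ end.

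No distal region lay in the introns of Slc3a2 in both libraries. Its 5 shared distal regions were 1 before the gene and 4 after it. The strongest lay 27.8 kb downstream of the start, towards Chrm1, with 13.4 in replicate 1 and 10.3 in replicate 2. The next, 21.8 kb downstream, had 7.14 and 7.55, below the promoter at the 5′ end in both libraries. The promoters of the neighbours Stx5a (14.6 and 16.0), a membrane fusion gene of the Golgi, and Wdr74 (13.7 and 14.3), a ribosome assembly gene, were higher than either promoter of Slc3a2 in both libraries.

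Slc1a5, the glutamine exchanger, lies on chr7:16781340-16798274 on the plus strand. Its promoter had 6.65 in replicate 1 and 6.32 in replicate 2 (mean 6.49 ± 0.235, SD, n = 2), higher than 15.0% of open promoters. No region of either library lay in the 20 kb before it. The 5 shared distal regions were 2 in introns and 3 downstream, and none had a signal above 10. The strongest of them, 23.5 kb downstream, had 8.65 and 7.68 (mean 8.16). The ratio between libraries farthest from 1 in any of the 6 loci was also here, just past the 3′ end, where replicate 1 had 2.19 and replicate 2 had 3.97.

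Slc7a1, the arginine transporter, lies on chr5:148327410-148399904 on the minus strand and had the highest promoter signal of the 6 genes. It was 10.8 in replicate 1 and 10.2 in replicate 2 (mean 10.5 ± 0.436, SD, n = 2), with a −log10 q of 343.7 and 224.0, which is higher than 43.5% of open promoters. A second coding start inside the gene had only 3.57 and 2.94.

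Of its 7 shared distal regions, 4 were in introns. The strongest, chr5:148342162-148343078, lay 57.3 kb into the gene and had 15.1 in replicate 1 and 13.5 in replicate 2, above the promoter in both. An annotated retained-intron transcript of Slc7a1 starts close to its summit, so whether it is an enhancer or an internal start cannot be told apart from these lists. Counted as a promoter, it would raise the promoter signal of Slc7a1 to 14.3. The next strongest distal region, inside the neighbour Mtus2 and 88.9 kb from the start, had 13.1 and 11.8.

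Slc38a1, a sodium-coupled glutamine carrier, lies on chr15:96571418-96642913 on the minus strand and showed the widest gap between promoter and distal signal. Its promoter had 6.08 in replicate 1 and 6.26 in replicate 2 (mean 6.17 ± 0.131, SD, n = 2), higher than 13.5% of open promoters. The summit lay 1.26 kb inside the gene, next to a coding start downstream of the annotated 5′ end, within a region of 2738 bp that reaches the 5′ end.

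A total of 11 distal regions surrounded it, the most of the 6 genes and more than in 96.8% of all genes. Of these, 7 were in introns. The strongest lay 12.0 kb before the gene and had 17.4 in replicate 1 and 15.5 in replicate 2 (mean 16.4), higher than 98.7% of shared distal regions. A second one of almost the same height, 90.7 kb downstream of the start, had 16.4 and 15.4 (mean 15.9). The mean of the strongest was 2.66 times that of the promoter, against ratios of 1.26 to 1.46 in the other 5 genes. An intron region 43.9 kb into the gene (12.1 and 10.3) and one at 59.4 kb (10.7 and 11.4) also exceeded the promoter in both libraries.

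Slc38a2, the amino acid-regulated relative of Slc38a1, lies on chr15:96687392-96699730 on the minus strand, 44.5 kb from Slc38a1. No region lay in both loci. The promoter had 7.79 in replicate 1 and 8.07 in replicate 2 (mean 7.93 ± 0.204, SD, n = 2), higher than 23.6% of open promoters. It had the fewest shared distal regions, 3, of which only 1 was strong. That region, chr15:96709118-96710696, lay 10.2 kb before the gene and had 11.4 and 11.2, with a −log10 q of 216.9 and 162.4. It was wider than 96.1% of shared distal regions, and its central 200 bp held 67.5% G and C with 20 CpG, the most G and C of any distal region at the 6 genes. The other two, near the 3′ end (2.80 and 3.42) and 2.63 kb into the gene (2.06 and 2.14), were among the weakest shared regions of the 6 loci.

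Each of the 6 genes had its strongest shared distal region above its own promoter, which held for 44.7% of the genes with both kinds of region. Genes with more distal regions have more chances of a strong one, and among genes with 3 to 11 of them the share was 54.2%. With gene bodies alone, without flanks, it held in 3 of the 5 transporter genes that still had a distal region, against 38.4% of all genes. These comparisons are of signal. By −log10 q in replicates 1 and 2, the largest distal value lay below the promoter at Slc3a2 (83.4 and 41.1 against 289.8 and 211.3). It also did at Slc1a5 (54.8 and 30.1 against 167.3 and 114.9) and Slc7a1 (184.2 and 104.1 against 343.7 and 224.0). At Slc38a1 it was above in replicate 1 alone (171.5 and 108.5 against 160.8 and 123.0). At Slc7a5 and Slc38a2 it was above in both libraries. The 6 genes had a median of 5.5 shared distal regions, against 2 over all genes, and 8.82 per 100 kb of locus, against 2.57. Genes with a locus of like length (within 10%, flanks included) had a median of 2 for the 4 shorter genes and 4 for Slc7a1 and Slc38a1. Both sets include genes without an open promoter, whereas all 6 genes had one (62.9% of all genes). No comparison with open genes alone is given here. Of the 37 distal regions, 16 were in introns of the gene, 1 in an exon, 6 upstream and 14 downstream. A signal above 10 was reached by 10 of the 37, or 27.0%, against 22.7% of all shared distal regions, and these 10 belonged to 5 of the genes, all but Slc1a5. In 16 of the 37 the region also lay in the locus of another coding gene, and 30 of the 37 were nearest to a start of the transporter gene itself. Proximity does not say which gene a region serves.

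**Figure D4:**
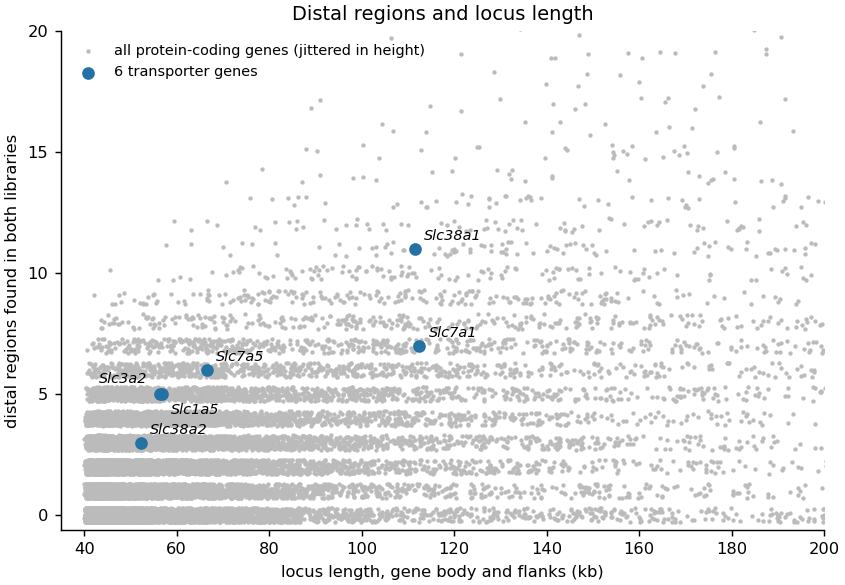
Locus length (kb, gene body and 20 kb on each side) against the number of distal regions found in both libraries, with all protein-coding genes in grey, jittered in height, and the 6 genes in blue; the axes end at 200 kb and 20 regions. Slc38a1 with 11 regions and Slc7a1 with 7 have the longest loci of the 6, and Slc38a2 with 3 the shortest.

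The libraries gave close values at these regions. Over the 48 shared regions the ratio of signal in replicate 1 to replicate 2 had a median of 1.04 and ranged between 0.552 and 1.37. The SD of its log2 was 0.238, against 0.228 for all shared regions. Signal was higher in replicate 1 in 30 of the 48, and −log10 q in 43 of the 48. Where each library had 1 peak, in 46 regions, the summits lay a median of 14 bp apart, and 36 were within 50 bp.

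**Figure D5:**
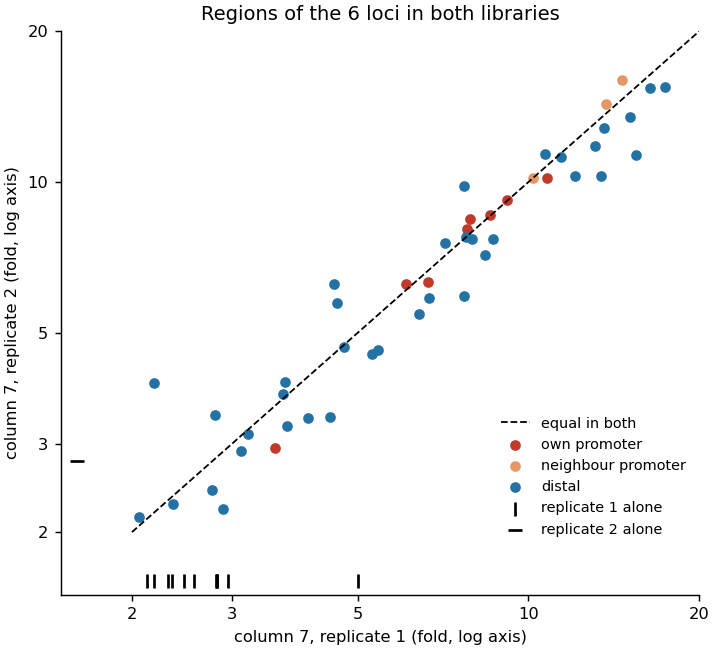
Signal in replicate 1 (x axis) against replicate 2 (y axis) for the 48 shared regions, both on log axes, with the dashed line of equal values; ticks at the edges mark the 12 regions of 1 library. Promoter regions lie close to the line, and the point farthest above it, at 2.19 and 3.97, is the region past the 3′ end of Slc1a5.

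Letters of the ATF4 composite TGATGNAA were found in the central 200 bp of 4 of the 37 distal regions, or 10.8%, against 3.37% of all shared distal regions. The 4 were the strong intron regions of Slc7a5 and Slc7a1, a weak intron region of Slc1a5 (3.75 and 3.26) and a weak region 19.3 kb before Slc7a1 (4.47 and 3.40). None of the 8 promoter windows held it in their central 200 bp, against 1.1% of all promoters. The search was then widened, after this had been seen, to 2000 bp around each summit. The letters were then in 4 of the 8 promoter windows, or 50%, against 17.7% of all shared promoter regions. These were at Slc1a5, Slc7a1, Slc38a1 and Slc38a2. Of the 37 distal windows, 14 held them, or 37.8%, against 26.8%. Windows of this width reach beyond many of the open regions. The match at the Slc1a5 promoter lay outside its region, as did the matches at a part of the distal regions. Counts this small are a description of letters and show no binding.

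Over the whole width of the regions, the composite matched the strongest promoter region of 3 of the 6 genes, against 11.2% of the 6918 shared promoter regions of 1274 to 2974 bp. These 3 had a match in an intron close to the 5′ end, 397 bp into Slc7a1, 460 bp into Slc38a1 and 546 bp into Slc38a2. A wider region has more room for a match, and the share of 11.2% is not matched in width within its range. The 3 regions spanned 1972, 2738 and 1980 bp. The third width quartile of all shared promoter regions, which the range includes, ended at 1592 bp. An amino acid response element in the first intron of human SLC38A2 is known from other work, as background. Of 13 matches in the shared regions of all 6 loci, 7 had the letters TGATGCAA, 3 TGATGGAA, 2 TGATGTAA and 1 TGATGAAA. Printed here are the 3 intron matches and the one in Slc1a5, all with the first of these, as 82 bases on the gene's strand with the match in capitals; Slc38a2 carries it on the other strand.
Slc1a5 (chr7:16784748-16784829): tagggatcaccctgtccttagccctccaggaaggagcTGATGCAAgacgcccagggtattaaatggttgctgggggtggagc
Slc7a1 (chr5:148399463-148399544): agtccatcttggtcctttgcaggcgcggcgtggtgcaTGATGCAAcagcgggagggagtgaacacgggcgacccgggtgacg
Slc38a1 (chr15:96642409-96642490): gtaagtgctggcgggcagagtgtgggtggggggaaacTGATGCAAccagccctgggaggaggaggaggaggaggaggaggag
Slc38a2 (chr15:96699140-96699221): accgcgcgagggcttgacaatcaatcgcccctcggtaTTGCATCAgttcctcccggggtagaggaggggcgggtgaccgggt

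The other letters were counted in the same windows of 200 bp. AP-1 letters TGANTCA were in 2 of the 37 distal windows, or 5.41%, against 29.8% of all shared distal regions, and in 2 of the 8 promoter windows, those of Slc7a1 and Slc38a1, against 5.3% of all promoters. RUNX letters TGTGGTT were in 2 distal windows, against 10.5% of all, and GATA letters in 0, against 9.11%. NFAT letters TTTCCA were in 9, or 24.3%, against 21.7%, STAT letters in 4, or 10.8%, against 9.25%, and the NF-kB letters GGGNNTTCC in 4, or 10.8%, against 5.68%. The CTCF core, added to the search after the sequences had been seen, was in 10, or 27.0%, against 15.6%, and the ETS letters AGGAAGT, added likewise, were in 6, or 16.2%, against 11.1%. In promoter windows the CCAAT box was in 2 of 8, against 28.7% of all promoters, and the ETS letters CCGGAAG in 0 of 8, against 13.2%.

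Of 32 other amino acid transporter genes, 23 had an open promoter in both libraries, or 71.9%, against 62.9% of all genes. Their median signal of 8.99 was below the 11.2 of all genes with an open promoter, and 16 of the 23 lay below it. The strongest promoters were those of Slc16a10, an aromatic amino acid carrier (15.8 ± 0.932), Slc38a9, the arginine-sensing carrier of the lysosome (14.9 ± 1.07), and Slc38a6 (14.6 ± 1.18, SD, n = 2 each). Distal regions were most numerous at Slc1a2, a glutamate carrier, with 17, at Slc6a6, the taurine carrier, with 10, and at Slc16a10 and the leucine carrier gene Slc43a1 with 7 each. No region of any kind was found in both libraries at Slc7a9 or Slc6a14. Among the 20 genes with both kinds of region, 14 had a distal region above the promoter, against 44.7% of all genes with both.

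Genes of the pathways that link amino acid supply to mTORC1, the growth-promoting kinase complex, or to ATF4 formed a second list. Not all of them are sensors, since parts of mTORC1 and Atf4 itself are among them. All 32 had an open promoter in both libraries, against 62.9% of all genes. Their median signal was 11.9, and 12 of them lay below the 11.2 of all genes with an open promoter. Rptor, the scaffold of mTORC1, had 17.3 ± 1.37, and Lamtor1 and Lamtor3, subunits of the lysosomal anchor of mTORC1, had 16.7 ± 0.0025 and 16.7 ± 0.304 (SD, n = 2 each). Atf4 itself had 9.27 in replicate 1 and 9.01 in replicate 2. These genes had a median of 2 shared distal regions, the same as all genes, and a distal region above the promoter in 10 of 29, against 44.7% of all genes with both. Distal regions were most numerous at Rptor with 20, Fnip1 with 9 and Depdc5, Sesn1 and Eif2ak4 with 8 each.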

How the data were processed

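ATAC-seq peak lists of 2 libraries from mouse T cells were used, in 1 group. Per the labels, coordinates are on mm10. Aligner, peak caller and threshold are not given in the sources used here, and read depth is unknown. The score in column 5 of the deposited files equals the −log10 q multiplied by 10, without decimals and never above 1000, in 99.999% of peaks of each library. The ratio in column 7 as deposited was read as fold over local background, from its values. The authors' −log10 p and −log10 q were taken as deposited.

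Used here were 78016 peaks of replicate 1 and 74653 of replicate 2, without the 88 and 80 that lie outside chromosomes 1 to 19, X and Y. Peaks of both libraries that overlapped by at least 1 bp were merged, and the stronger summit was taken. Genes and 54361 coding starts came from GENCODE mouse release 21. A locus was the gene body with flanks of 20 kb. All transporter genes were named, and of the other lists the 3 genes with the strongest promoters, the 3 with the most distal regions and those with no region. Atf4 was named beside these after its values were seen. A few items that this rule names are not reported here. Genes, lists and letters were chosen with earlier results of these data known. No test was possible with 1 group, so counts stand beside the share of all genes or regions. Means ± SD are over the 2 libraries.

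Region counts, promoter signals, the counts over both gene lists and the comparison of distal with promoter signal were recomputed under 11 alternatives. These differed in peak threshold, peak number, overlap, promoter distance, flank, transcription starts and libraries used. Letters, widths, base content and ratios between libraries were not recomputed. The code was tested on simulated data. Python 3.11.15, pandas 2.3.3, numpy 2.4.6, pysam 0.24.0 and matplotlib 3.10.9 were used.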

Additional observations from a re-analysis of the deposited data

How the results depend on the processing

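Counts of distal regions depended on how peaks and flanks were chosen, while 5 or 6 of the 6 promoters were open under every alternative. With the 50000 strongest peaks of each library, the 6 loci held 33 merged regions and 19 shared distal regions, with a median of 2.5 per gene (60, 37 and 5.5 in the report). Without flanks they held 30 merged regions, 5 shared promoter regions and 17 shared distal regions, with a median of 2. With flanks of 50 kb these were 96, 18 and 58, with a median of 8.5. With the gene's 5′ end as the only start, 5 of the 6 genes had a promoter region, since the summit of Slc38a1 lies farther inside, and the median promoter signal was 8.57, against 8.25. Over the 11 alternatives, 12 of the totals and medians over the 6 genes and lists moved and 76 stayed within 1.5 times the reported count or within 1 SD. Of the counts and signals of single genes, 17 moved and 114 stayed, with Slc3a2 at 0 distal regions without flanks and Slc7a5 at 14 with flanks of 50 kb. Part of what stayed could not have moved. The promoter signal of a gene in either of 2 libraries always lies within 1 SD of their mean. Flanks do not enter the promoter signals or the promoter counts of the gene lists. The numbers that stayed are therefore no measure of how stable the results are.

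The distal region above the promoter held in all 6 genes, except for 3 of the 5 with a distal region when flanks were left out (38.4% of all genes), 5 of 5 with the 5′ end alone (46.1%), and 5 of 6 with starts of all transcripts (42.4%), where the promoter signal of Slc7a1 became 14.3 and 5 of 6 promoters lay below the median of all genes. With a −log10 q of at least 5, Slc1a5 kept 3 distal regions. Without replicate 2, Slc7a1 had 11 distal regions and Slc38a2 had 5, since regions of 1 library then count. The loci held between 38 and 50 distal regions with 1 library left out. No paired analysis was possible because there is only 1 group. With depth unknown, absence from a list may only mean a peak under the caller's threshold.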
